A study of Mus musculus with 31 samples.

Results

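The Elovl genes encode the fatty acid elongases of vertebrates, and their transcripts were followed here by RNA-seq in 3 fat depots of the mouse during cold exposure. Of 6 members sought by symbol (Elovl1, Elovl3, Elovl4, Elovl5, Elovl6 and Elovl7), 5 had a row among the 17334 transcript accessions of the deposited count tables, 1 accession each, and Elovl1 was not analysed here. All libraries came from male C57BL/6J mice aged 8 weeks that were first held at thermoneutrality for 8 days. Mice were then killed (day 0) or kept at 4 °C for 2 days or for 4 days. Interscapular brown adipose tissue (iBAT) gave 3, 4 and 3 libraries on days 0, 2 and 4. Inguinal white adipose tissue (iWAT) gave 4, 3 and 5, and epididymal white adipose tissue (eWAT) gave 3 on each day, 31 libraries in all. The labels name no mice kept at thermoneutrality for the length of the cold exposure, so the cold and the time after acclimation cannot be told apart. The labels do not say whether libraries of a group came from separate animals, and the p-values measure the spread between these libraries.

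Fatty acids made in the cell or taken up from food are lengthened in the endoplasmic reticulum by a cycle that adds a pair of carbons from malonyl-CoA at each turn. The Elovl enzymes carry out the first step, the condensation, and thereby set which fatty acids are lengthened. Elovl3 lengthens saturated and monounsaturated very long chain fatty acids and was first described as a gene that cold induces in brown fat. Elovl6 converts palmitate to stearate and so acts on the direct product of fatty acid synthase. Elovl5 acts on polyunsaturated fatty acids. Elovl4 makes the longest chains, which are used in retina, skin, brain and testis, and Elovl7 acts mainly on saturated very long chains.

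All elongases share a catalytic histidine box, and its codons are shown because they define the family to which the 5 rows belong. Each coding sequence was searched in frame for a histidine codon, any 2 codons and then 2 adjoining histidine codons, and each held exactly 1 match. The 45 coding bases around it, from GRCm38 (the assembly that mm10 represents) and the GENCODE M21 annotation, are given 5′ to 3′ on the gene's strand, with the 3 histidine codons in capitals.
Elovl3: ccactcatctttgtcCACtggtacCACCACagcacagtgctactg
Elovl6: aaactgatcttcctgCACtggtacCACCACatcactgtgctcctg
Elovl5: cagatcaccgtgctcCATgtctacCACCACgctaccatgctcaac
Elovl4: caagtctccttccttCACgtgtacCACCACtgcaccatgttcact
Elovl7: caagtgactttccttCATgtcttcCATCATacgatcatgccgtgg
The Elovl3 window lies at chr19:46134407-46134451 on the plus strand, in exon 4 of 4 of a gene that spans chr19:46131897-46135694. The Elovl6 window lies at chr3:129633092-129633136, plus strand, in exon 5 of 5. The Elovl5 window lies at chr9:77976835-77976879, plus strand, in exon 5 of 8, and the Elovl4 window at chr9:83785075-83785119, minus strand, in exon 4 of 6. The Elovl7 window lies at chr13:108274316-108274360, plus strand, in exon 6 of 8. Elovl3 and Elovl6 were the most alike of the 10 pairs, with 36 of 45 bases identical (80%), and Elovl3 and Elovl7 the least alike, with 21 of 45.

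Counts per library totalled 1.58 to 3.76 M in iBAT, 1.5 to 5.53 M in iWAT and 3.19 to 4.03 M in eWAT. In iBAT548, a day 4 library, 57 features had a count of 1, and in iBAT539, a day 2 library, 159 had, against 1014 to 1224 in the other 8 iBAT libraries, so a missing low count in these 2 is not shown to be 0. The summed level of 10 brown adipocyte markers was 12878 to 39875 CPM (counts scaled to a common library total) in iBAT, 655 to 10975 in iWAT and 73.3 to 459 in eWAT. The summed level of 5 adipocyte markers was 10298 to 61433 CPM over all 31 libraries, so markers of fat were present in each. Markers of other tissues were present too. Skeletal muscle markers summed to 3870 to 57790 CPM in iBAT, lymphocyte markers to 806 to 4420 CPM in iWAT, and testis and epididymis markers to 162 to 39051 CPM in eWAT. In such bulk samples fewer cells of a type and less RNA per cell cannot be told apart.

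Levels were compared between members per transcript length, as RPKM (CPM per kilobase of transcript). In iBAT at day 0, Elovl6 stood at 48.8 ± 13.4 (SD, n = 3), Elovl5 at 44.4 ± 12.8 (n = 3) and Elovl3 at 32.2 ± 21.3 RPKM (n = 3), and their ranges overlapped. In iBAT at day 2 the order was Elovl3 at 406 ± 163, Elovl6 at 135 ± 73.6 and Elovl5 at 36.5 ± 19.8 RPKM (n = 4). At day 4 the same order held in iBAT, with Elovl3 at 287 ± 23.0, Elovl6 at 103 ± 37.2 and Elovl5 at 48.4 ± 27.0 RPKM (n = 3). The ranges of Elovl3 (230 to 623) and Elovl6 (76.2 to 241) touched at day 2 and lay apart at day 4. Among the 5 members with a row, which leave out Elovl1, 3 thus stood at overlapping levels in brown fat at day 0. In the cold Elovl3 had the highest mean of the 5. In iWAT, Elovl6 had the highest mean on each day, 56.7, 52.1 and 68.2 RPKM, and Elovl3 had 2.43 RPKM at day 0, 47.8 at day 2 and 30.1 at day 4, when the ranges of both overlapped. In eWAT, Elovl5 had the highest mean, 27.0, 30.7 and 30.0 RPKM on the 3 days, followed by Elovl6 at 7.72, 15.3 and 14.1 RPKM. Elovl4 and Elovl7 stayed at or below a group mean of 2.27 RPKM, apart from Elovl4 in eWAT at day 4, which rests on 1 library.

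**Figure D1:**
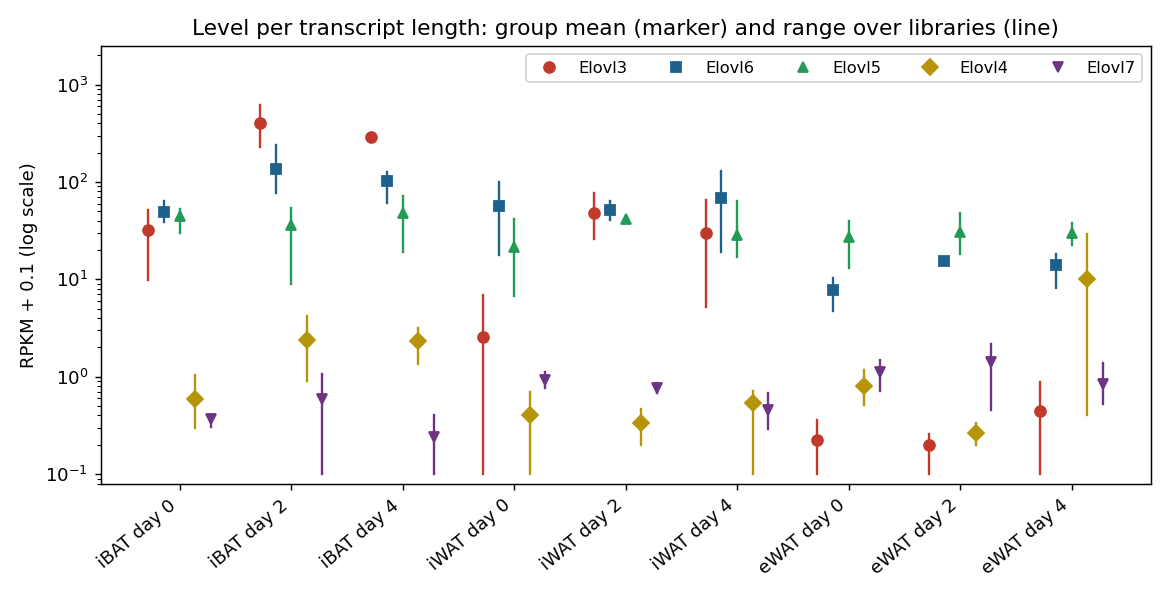
Mean level per transcript length (RPKM, with 0.1 added, log scale) of each of the 5 elongases in the 9 groups of depot and day; lines span the lowest to the highest library. By group mean, Elovl3 leads in iBAT in the cold, Elovl6 in iWAT, where its range overlaps that of Elovl3 in the cold, and Elovl5 in eWAT, and the long line of Elovl4 in eWAT at day 4 ends at 29.1 RPKM in a single library.

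Elovl3 rose in brown fat in the cold. Its level in iBAT at day 0 was 65.7 CPM in iBAT516, 18.2 in iBAT517 and 97.9 in iBAT518. At day 2 it was 1172, 698, 756 and 432 CPM in iBAT532, iBAT534, iBAT535 and iBAT539. Every day 2 library lay above every day 0 library, as was the case for 5.78% of the 8270 features tested in iBAT. The end of the Elovl3 gene overlaps Pitx3, which had at most 18 counts in an iBAT library, against 60 to 1797 for Elovl3. How reads of the shared end were assigned is not known, so these counts do not measure Pitx3 reads counted as Elovl3. The Elovl3 change at day 2 was 3.73 ± 0.58 (log2, SE), or 13.3-fold, with an adjusted p of 0.0389. Elovl3 was the 1 member called of the 4 tested in this comparison, and 0.157% of the 8270 features tested were called (13). Without iBAT539 and iBAT548 the change was 3.90 ± 0.57 with an adjusted p of 0.0210. The call was lost in 9 of the 10 fits that left out 1 iBAT library, all but that without iBAT548, with log2 changes of 3.30 to 4.26 and adjusted p from 0.0672 to 0.269 in those 9. The adjusted p was 0.0708 with scaling by library size alone and 0.0859 in 1 fit of all 31 libraries.

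At day 4, Elovl3 in iBAT stood at 569, 562 and 490 CPM in iBAT548, iBAT550 and iBAT555. These 3 libraries were close to each other, and again each lay above every day 0 library, as for 6.7% of features. The change from day 0 was 3.27 ± 0.58 (log2, SE) with an adjusted p of 0.143, short of the threshold of 0.05. Of the 8270 features, 0% were called in this comparison by edgeR, 581 had an unadjusted p under 0.05, DESeq2 called 54 higher and 27 lower, and limma voom called 0. DESeq2 put the Elovl3 change at 3.24 with an adjusted p of 3.16e-05. The estimate between the cold days, day 4 minus day 2, was −0.46 ± 0.50 (adjusted p = 0.986), within the spread. Between these days edgeR called 0% of features in each depot, with 263, 501 and 436 at an unadjusted p under 0.05 in iBAT, iWAT and eWAT. Day 2 and day 4 were compared with the same 3 day 0 libraries. Markers of other tissue stood at different levels in the same groups. Skeletal muscle markers summed to 18082 to 57790 CPM at day 0, 6798 to 10875 at day 2 and 3870 to 22064 at day 4, and all 15 tested had a log2 estimate below 0 at day 2, with 0 called. Immediate early genes, a sign of tissue handling, summed to 1281 to 3731 CPM at day 0 and to 432 to 870 at day 2. Of 10 brown adipocyte markers tested, 8 had an estimate above 0 at day 2 and 1 was called. They summed to 12878 to 14331 CPM at day 0, 17937 to 39875 at day 2 and 31196 to 35107 at day 4. Ucp1, 1 gene of this list, had means of 7496, 22130 and 26676 CPM on these days, on the scale of the member levels. The rise of the sum thus rests in large part on Ucp1 and is no count of brown adipocytes. The part of these genes' tissues and cells in the Elovl3 result was not tested.

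In iWAT the estimated changes of Elovl3 were of the same order as in iBAT but did not pass the edgeR test. At day 0 it had 5.06, 12.7, 0 and 0.591 CPM in iWAT516, iWAT517, iWAT518 and iWAT522, or 72 counts over the 4. At day 2 it had 76.8, 144 and 48.6 CPM in iWAT532, iWAT538 and iWAT539. At day 4 it had 50.4, 123, 35.5, 65.1 and 9.66 CPM in iWAT548, iWAT550, iWAT551, iWAT553 and iWAT555. All day 2 libraries lay above all day 0 libraries, an arrangement that 8.15% of 9574 features showed in that direction. The day 4 libraries overlapped with day 0 through iWAT555, which lay below iWAT517. The fitted changes were 4.18 ± 0.98 at day 2 (adjusted p = 0.252) and 3.55 ± 0.91 at day 4 (adjusted p = 0.474). Of the 72 day 0 counts 52 were in iWAT517, and without it the changes were 5.37 ± 1.07 (adjusted p = 0.296) and 4.74 ± 1.01 (adjusted p = 0.499). Of the features tested in iWAT, 0% were called by edgeR on either day, with 1020 and 793 at an unadjusted p under 0.05. DESeq2 called 54 higher and 57 lower at day 2, and 35 higher and 6 lower at day 4, Elovl3 among them with adjusted p of 0.00221 and 0.00566, while limma voom called 0 on both days. Library iWAT555 also had the lowest sum of adipocyte markers of all 31 (10298 CPM), the lowest of brown adipocyte markers at day 4 (1430 CPM, against 4375 to 10780) and 6098 CPM of testis and epididymis markers, against 1.25 to 118 in the other day 4 libraries. Brown adipocyte markers summed to 655 to 2015 CPM at day 0, 5454 to 10975 at day 2 and 1430 to 10780 at day 4, and 8 of 9 tested had an estimate above 0 on each cold day, with 0 called. Here too the rise of the sum rests in large part on Ucp1, with means of 212, 6065 and 3259 CPM. Skeletal muscle markers summed to 45.1 to 3478, 25.5 to 85.4 and 24.0 to 1101 CPM, and all 12 tested had an estimate below 0 on each day, with 0 called. Keratinocyte and sebocyte markers summed to 297 to 15553 CPM at day 0, 444 to 2971 at day 2 and 312 to 6032 at day 4. The sum of this list was not particular to iWAT, as it reached 8351 CPM in eWAT and 3772 CPM in iBAT. The part of these cells and tissues in the Elovl3 values was not tested.

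**Figure D2:**
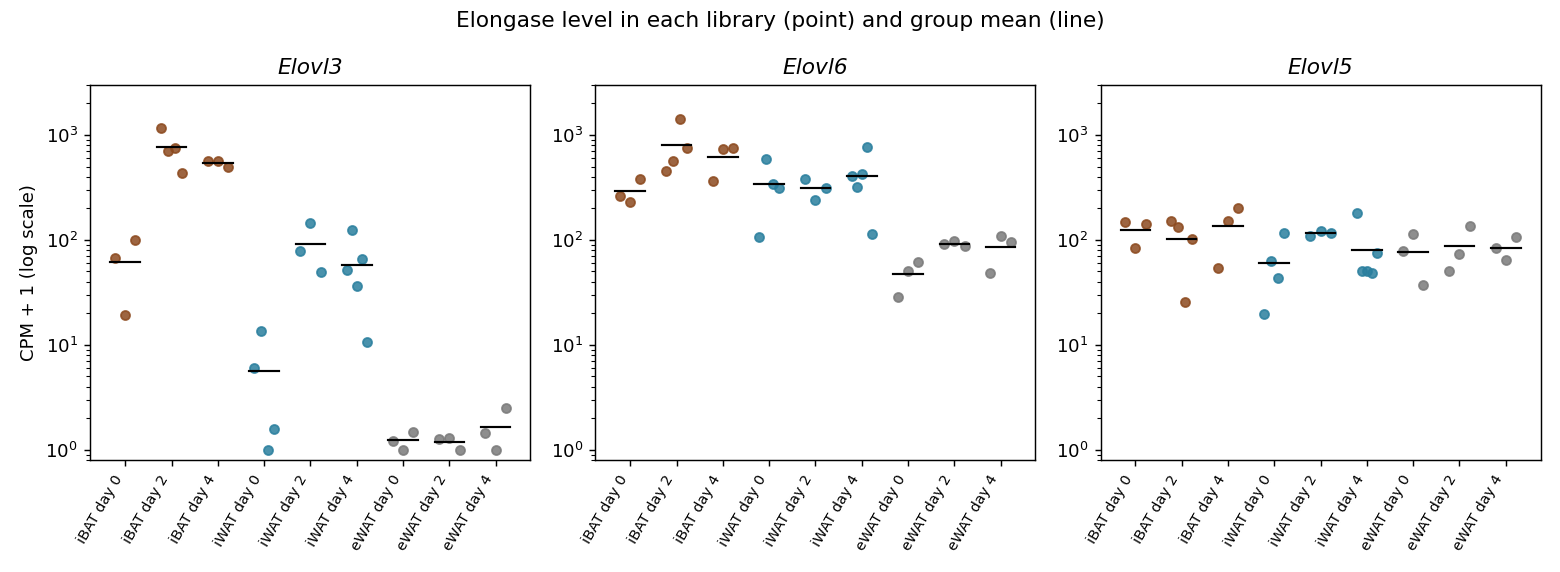
Level of Elovl3, Elovl6 and Elovl5 in every library (points, CPM with 1 added, log scale) and group mean (black lines), by depot and day. On each day all iBAT libraries lie above all iWAT libraries in Elovl3, as for 6.5% to 15.3% of features by day. All eWAT libraries lie below the other depots in Elovl6 on each day. By day, 9.32% to 14.1% of features lay higher in iBAT than in eWAT without overlap, and 6.96% to 15.6% higher in iWAT than in eWAT. The 9 group means of Elovl5 lie between 59.8 and 135 CPM.

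Elovl3 was close to absent from eWAT on every day, with counts of 1, 0 and 2 at day 0, 1, 1 and 0 at day 2, and 2, 0 and 6 at day 4. The highest value was 1.48 CPM, below every iBAT library (higher in iBAT without overlap on days 0, 2 and 4 were 14.1%, 9.32% and 11.5% of features) and below every iWAT library of the cold days (15.6% at day 2 and 6.96% at day 4). Over the 9 groups, mean Elovl3 levels ran from iBAT at day 2 (764 ± 306 CPM) and day 4 (540 ± 43.3), which overlapped, to iWAT at day 2 (90.0 ± 49.3), iBAT at day 0 (60.6 ± 40.1), iWAT at day 4 (56.7 ± 42.2), iWAT at day 0 (4.58 ± 5.85) and the 3 eWAT groups. Between iBAT at day 4 and the next group there was a gap, and all later neighbours overlapped. At day 0, iBAT exceeded iWAT by 3.64 ± 0.86 (log2, SE, adjusted p = 0.00387), at day 2 by 3.09 ± 0.89 (adjusted p = 0.0178) and at day 4 by 3.25 ± 0.76 (adjusted p = 0.00398). On all 3 days every iBAT library lay above every iWAT library, as for 15.3%, 10.3% and 6.5% of 11041 features on days 0, 2 and 4. Without iWAT517 the day 0 difference was 4.84 ± 0.97 (adjusted p = 0.00114). The day 2 call was lost without iWAT532 or iWAT539, with adjusted p of 0.0674 to 0.105 in those 2 fits.

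Ratios of Elovl3 to eWAT were taken from pooled counts, with exact 95% intervals for counting error only, because a fitted change against so few counts depends on the prior count. At day 0 the iBAT level was 277 times that of eWAT (94.4 to 1349, with 3 counts in eWAT) and the iWAT level 26.0 times (8.54 to 129, from 72 and 3 counts). At day 2 the ratios were 4351 (1204 to 35940, 5065 and 2 counts) and 512 (141 to 4234, 1004 and 2 counts). At day 4 they were 850 (431 to 1970, 3764 and 8 counts) and 78.9 (39.9 to 183, 921 and 8 counts). Library eWAT518 held 2 of the 3 counts of day 0 and eWAT553 held 6 of the 8 of day 4. Without eWAT518 the fitted log2 differences of iBAT and iWAT from eWAT at day 0 moved from 7.88 to 8.75 and from 4.24 to 5.11, and without eWAT553 those at day 4 moved from 9.64 to 10.95 and from 6.38 to 7.70, with all 4 still called. The tests of iBAT against eWAT gave adjusted p of 1.58e-04, 4.14e-06 and 1.87e-05 on days 0, 2 and 4. Those of iWAT against eWAT gave 0.0256, 1.03e-04 and 4.82e-04. The day 0 call of iWAT against eWAT is the weakest of these: 1 of the 4 iWAT libraries had 0 CPM and another 0.591 CPM, against 0 to 0.489 CPM in eWAT, and the call was lost without iWAT517, eWAT516 or eWAT517 (adjusted p 0.114 to 0.150), with limma voom (0.221) and in a fit of the day 0 libraries alone (0.0861). Without iWAT517 its log2 difference was 3.03.

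Whether Elovl3 changed more in one depot than in another was tested directly. The iBAT change minus the iWAT change was −0.55 ± 1.12 at day 2 (adjusted p = 0.873) and −0.39 ± 1.10 at day 4 (adjusted p = 1.00), both with an SE above 1 on the log2 scale. No member passed in any of the 6 such comparisons of depots and days, in each of which edgeR called 0 of 11041 features (0%), with 445 to 1153 at an unadjusted p under 0.05. DESeq2 called 3 to 81 features higher and 6 to 21 lower in them, and no member. The changes in iBAT and iWAT were thus not distinguishable in size by this test, although only the one in iBAT at day 2 passed its own.

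**Figure D3:**
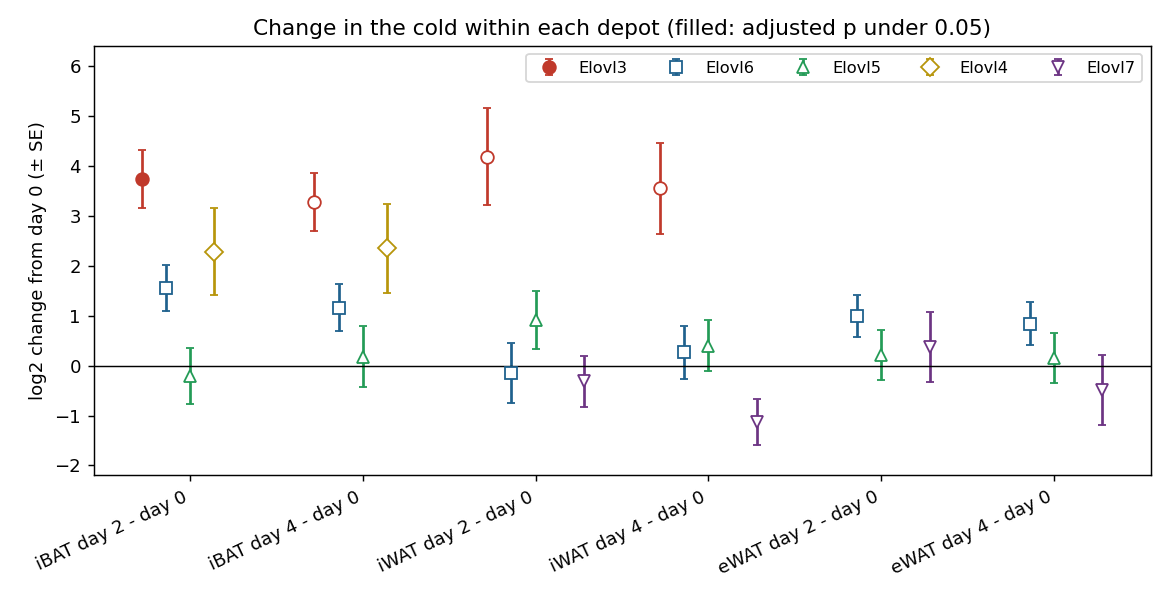
Fitted log2 change from day 0 (± SE) of each tested elongase within each depot; filled symbols have an adjusted p under 0.05. Elovl3 in iBAT at day 2 (3.73) is the 1 filled symbol, and its other changes (3.27, 4.18 and 3.55) lie near it with errors of 0.58 to 0.98.

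Elovl6 was lower in epididymal fat than in both other depots. Its group means ran from 802 ± 438 CPM in iBAT at day 2 to 290 ± 80.0 in iBAT at day 0, with all iWAT groups between them and every neighbour overlapping, and then over a gap to 90.9 ± 4.97 CPM in eWAT at day 2. In eWAT it had 27.6, 49.9 and 60.4 CPM at day 0, 89.5, 96.5 and 86.9 at day 2 and 47.4, 108 and 95.4 at day 4. In iBAT it had 262, 228 and 381 CPM at day 0, and in iWAT 106, 595, 339 and 310. No eWAT library of day 0 reached the lowest of either other depot, an arrangement shown by 14.1% of features for iBAT and 10.1% for iWAT. At day 0, iBAT exceeded eWAT by 2.66 ± 0.59 (6.31-fold, adjusted p = 0.00365) and iWAT exceeded it by 2.88 ± 0.58 (7.34-fold, adjusted p = 0.00164). Between iBAT and iWAT the estimate was −0.22 ± 0.52 (adjusted p = 0.798). At this time point 1 of the 5 members was called between iBAT and iWAT, where 17.9% of 11041 features were, 2 of 5 between iBAT and eWAT (10.3%) and 2 of 5 between iWAT and eWAT (7.82%). The member called between iBAT and iWAT was Elovl3, and those called against eWAT were Elovl3 and Elovl6.

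The Elovl6 difference from eWAT was also called on the cold days. At day 2 the iBAT minus eWAT difference was 3.14 ± 0.58 (adjusted p = 4.88e-04) and at day 4 it was 2.88 ± 0.59 (adjusted p = 0.00152). For iWAT minus eWAT it was 1.77 ± 0.57 at day 2 (adjusted p = 0.0458) and 2.27 ± 0.55 at day 4 (adjusted p = 0.00724). The iWAT call at day 2 was lost in 16 of 31 fits that left out 1 library (adjusted p up to 0.136) and without the filter on low counts (0.0634), and the one at day 4 only without eWAT548 (adjusted p = 0.0522). The other 4 Elovl6 calls, iBAT minus eWAT on each day and iWAT minus eWAT at day 0, held in all 31 such fits. At day 2, 1 of 5 members was called between iBAT and iWAT (Elovl3; 15.6% of features), 3 of 5 between iBAT and eWAT (Elovl3, Elovl4 and Elovl6; 17.8%) and 2 of 5 between iWAT and eWAT (Elovl3 and Elovl6; 10.2%). At day 4 the counts were 1 (Elovl3; 17.6%), 2 (Elovl3 and Elovl6; 18.1%) and 3 (Elovl3 and Elovl6 higher in iWAT, Elovl4 lower; 9.94%).

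In the cold, Elovl6 did not pass the edgeR test in any depot. In iBAT at day 2 it had 454, 564, 1431 and 758 CPM in iBAT532, iBAT534, iBAT535 and iBAT539, all above the day 0 libraries, as for 5.78% of features. The change was 1.55 ± 0.46 (2.93-fold) with an adjusted p of 0.210, and DESeq2 gave 1.5 ± 0.47 with an adjusted p of 0.0411. In iBAT at day 4 it had 359, 734 and 751 CPM, of which the first lay within the day 0 range, and the change was 1.16 ± 0.47 (adjusted p = 0.651). In iWAT it had 381, 240 and 309 CPM at day 2 and 408, 319, 426, 763 and 112 at day 4, in the same range as at day 0, with changes of −0.15 ± 0.60 and 0.27 ± 0.53 (adjusted p = 0.933 and 0.943). In eWAT all day 2 libraries lay above all day 0 libraries, as did 2.12% of 10043 features. That change was 0.99 ± 0.43 and the day 4 change 0.84 ± 0.43, both with an adjusted p of 1.00. In eWAT 0% of features were called on either day, with 106 and 277 at an unadjusted p under 0.05 and with 0 calls by DESeq2 at day 2 and 1 higher and 3 lower at day 4. The difference between the iBAT and the iWAT change at day 2 was 1.59 ± 0.74 (adjusted p = 0.471).

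Elovl5 was the most even member. Its level in iBAT was 146, 82.7 and 142 CPM at day 0, 149, 131, 24.8 and 101 at day 2 and 53.2, 149 and 201 at day 4. In iWAT it was 18.6, 62.4, 42.1 and 116 CPM at day 0, 109, 121 and 116 at day 2 and 178, 49.5, 49.9, 46.9 and 73.6 at day 4. In eWAT it was 77.1, 112 and 36.4 CPM at day 0, 49.9, 72.1 and 135 at day 2 and 82.0, 62.9 and 106 at day 4. The 9 group means ran from 59.8 ± 41.6 (iWAT at day 0, n = 4) to 135 ± 75.2 CPM (iBAT at day 4, n = 3), and each group's range overlapped with that of the next in order. Elovl5 passed in 0 of 24 comparisons by edgeR, with 0 at an unadjusted p under 0.05 and 0 by DESeq2 or limma voom. Its largest change in the cold was 0.91 ± 0.58 in iWAT at day 2 (adjusted p = 0.566). In iBAT535, a day 2 library, Elovl5 had its lowest value of that group (24.8 CPM) and Elovl6 its highest (1431 CPM).

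Elovl4 was low, and its reading in eWAT turns on 1 library. In iBAT it had 2.85, 0.909 and 0.593 CPM at day 0, 12.3, 7.79, 2.43 and 4.76 at day 2 and 9.18, 7.35 and 3.74 at day 4, from 2 to 29 counts per library. The changes were 2.28 ± 0.86 at day 2 (adjusted p = 0.314) and 2.35 ± 0.89 at day 4 (adjusted p = 0.613), and every day 4 library lay above those of day 0, as for 6.7% of features. Without iBAT516 the changes were 3.14 ± 1.05 and 3.19 ± 1.07 (adjusted p = 0.590 and 0.998). In iWAT it had 0 to 1.86 CPM and at most 12 counts. In eWAT it had 3.20, 1.92 and 1.22 CPM at day 0 and 0.504, 0.294 and 0.706 at day 2. At day 4 it had 0.917 CPM in eWAT548, 87.2 in eWAT551 (358 counts) and 1.48 in eWAT553. Library eWAT551 was thus the highest of all 31 by a wide margin. At day 2, iBAT exceeded eWAT by 3.63 ± 1.23 (adjusted p = 0.0409). That call was lost without iBAT532, iBAT534, iBAT539, eWAT532, eWAT538 or eWAT539 (adjusted p 0.0514 to 0.132), with library size alone (0.0582), without the filter on low counts (0.0508) and with limma voom (0.0765). At day 4, iWAT was lower than eWAT by −4.46 ± 1.00 (adjusted p = 0.00422), and without eWAT551 the difference was 0.14 ± 0.94 (adjusted p = 0.971). It was also lost with limma voom (−2.23, adjusted p = 0.197) and in a fit of the day 4 libraries alone (adjusted p = 0.0627).

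The same eWAT library also held the highest levels of some epididymal genes, but not of all. Lcn8, which encodes a lipocalin of the epididymis, had 8318 CPM of the total count in eWAT551 and 0.293 to 32.3 in the other 8 eWAT libraries. Spink11, a protease inhibitor gene, had 5722 CPM there and at most 830 elsewhere, and Lcn9 had 1663 against at most 202. Spink8 had 3073 CPM in eWAT551, against 3150 in eWAT516 and 5518 in eWAT532, and Crisp1, a sperm-binding protein gene of the epididymis, had 187 CPM, against 2954 and 1750. Testis and epididymis markers as a list summed to 21579 CPM in eWAT551, but also to 23148 in eWAT516 and 39051 in eWAT532, mainly through Akr1b7 (15668 and 30506 CPM, against 3.74 in eWAT551), where Elovl4 had 3.20 and 0.504 CPM. Adipocyte markers summed to 16274 CPM in eWAT551, the lowest of eWAT. The part of epididymal tissue in the Elovl4 value was not tested.

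**Figure D4:**
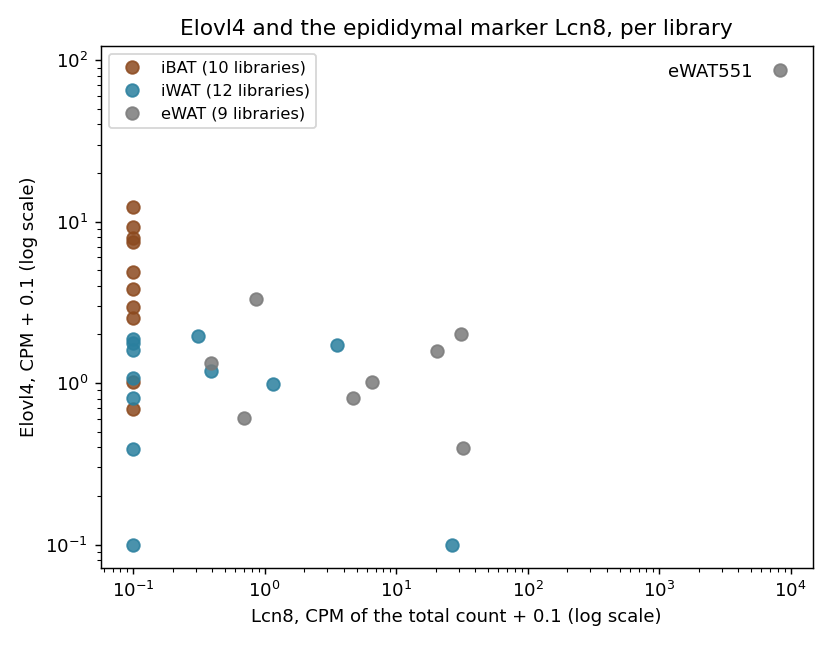
Elovl4 level against the level of Lcn8 in each of the 31 libraries (CPM with 0.1 added, both axes log). Library eWAT551, with 87.2 CPM of Elovl4 and 8318 CPM of Lcn8, lies alone at the upper right. The iBAT libraries have no count of Lcn8. Lcn8 is the gene of the testis and epididymis list with the highest level in eWAT551. Spink11, Lcn9 and Wfdc13 were also highest in this library, but Spink8, Crisp1, Akr1b7 and the rest of the list were not. The figure thus does not stand for the list as a whole.

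Elovl7 was at 0 to 8.24 CPM in all libraries, with at most 28 counts. Its group means were highest in eWAT at day 2 (5.32 ± 3.52 CPM, n = 3) and lowest in iBAT at day 4 (0.564 ± 0.618, n = 3), where iBAT548 entered as 0 although its missing low counts are not shown to be 0, and it did not enter the iBAT test because its counts were too low. In iWAT it had 3.38, 2.68, 2.97 and 4.13 CPM at day 0 and 2.36, 0.930, 1.11, 0.756 and 1.88 at day 4. All day 4 libraries lay below all day 0 libraries, as did 1.14% of features, and the change was −1.13 ± 0.47 (adjusted p = 0.556). It passed in 0 of 21 comparisons by edgeR, with 3 at an unadjusted p under 0.05, 1 by DESeq2 and 1 by limma voom. The difference that both called, iBAT below eWAT at day 4, was −2.52 ± 0.94 with an adjusted p of 0.0616 by edgeR, −2.69 with 0.0453 by DESeq2 and −2.42 with 0.0410 by limma voom. It passed in 4 of 9 alternative settings and in 2 of 31 fits that left out 1 library. The value moved to −1.74 without iBAT548 (adjusted p = 0.258), to −1.88 without eWAT551 (adjusted p = 0.235) and to −3.62 without iBAT550 (adjusted p = 0.0415). Small differences were not detectable at these counts.

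The genes that work with the elongases were described by lists. In the 6 comparisons of cold with day 0, edgeR called 0 of 232 gene and comparison pairs over the 5 lists, with 32 at an unadjusted p under 0.05. Of the other enzymes of the elongation cycle 3 were tested in iBAT, and all 3 had a positive estimate at day 2, with a median of 1.68 against 0.01 for all features. Hsd17b12, the ketoacyl reductase of the cycle, had 462 ± 131 CPM at day 0 (n = 3) and 1396 ± 301 at day 2 (n = 4), a change of 1.68 ± 0.37 with an adjusted p of 0.106. Hacd2, a dehydratase of the cycle that was singled out after its values were seen, had 162 ± 16.4 and 1034 ± 342 CPM, a change of 2.77 ± 0.49 with an adjusted p of 0.0583. Among genes of de novo fatty acid synthesis 9 were tested in iBAT, with 0 called, all 9 estimates above 0 and a median of 0.90 at day 2 and 1.03 at day 4. Fasn, fatty acid synthase, had 5773 ± 492, 10537 ± 5257 and 15439 ± 3457 CPM on days 0, 2 and 4, changes of 0.94 ± 0.41 and 1.51 ± 0.44 (adjusted p = 0.382 and 0.440). The 5 desaturases tested in iBAT had a median of 0.21 at day 2, and Scd1, which introduces a double bond into stearate and palmitate, had 21922 ± 1901 CPM at day 0 and 15726 ± 3926 at day 2 (−0.38 ± 0.34, adjusted p = 0.665). The 9 genes tested from the list of regulators of fatty acid synthesis had a median of 0.10 at day 2. Insig1 of this list, which retains the sterol-sensing SREBP complex in the endoplasmic reticulum, had −0.35 ± 0.36 (adjusted p = 0.707). The 11 users of very long chain acyl groups had a median of 0.35.

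Between depots, edgeR called 20 of 126 pairs of these lists' genes and comparisons at day 0, 26 at day 2 and 34 at day 4, where 7.82% to 18.1% of all features were called in each comparison. Hsd17b12 was higher in iBAT than in eWAT by 2.19 ± 0.38 at day 2 (adjusted p = 2.46e-04) and 1.61 ± 0.39 at day 4 (adjusted p = 0.00519), and higher than in iWAT by 1.14 ± 0.36 and 0.94 ± 0.33 (adjusted p = 0.0314 and 0.0491). Hacd4, also of the dehydratase family, was the 1 cycle gene called at day 0, lower in iBAT and iWAT than in eWAT (mean 9.54 ± 10.5 CPM in eWAT, 1.55 ± 0.324 in iBAT and 0.928 ± 0.761 in iWAT). Of 9 genes of de novo synthesis, 2 were higher in iBAT than in eWAT at day 0, 3 at day 2 and 5 at day 4, with none lower. Acacb, the acetyl-CoA carboxylase of the mitochondrial surface, led them with 2.79 ± 0.61, 3.23 ± 0.60 and 3.12 ± 0.61 (adjusted p = 0.00309, 4.89e-04 and 0.00102). Of 14 users of very long chain acyl groups, 2 were higher and 3 lower in iBAT than in eWAT at day 0. Slc27a2, a very long chain acyl-CoA synthetase, was higher by 4.26 ± 0.82 (adjusted p = 0.00103) and Abcd3, a peroxisomal transporter, by 1.38 ± 0.42 (adjusted p = 0.0330). Cers4, a ceramide synthase, was lower by −1.63 ± 0.32 (adjusted p = 0.00126). Among desaturases, Fads3 was lower in iBAT than in eWAT on all 3 days (−2.06 ± 0.50, −1.78 ± 0.45 and −2.98 ± 0.53, adjusted p = 0.00776, 0.00743 and 3.60e-04). Esrra, an orphan nuclear receptor that was listed with the regulators, was higher in iBAT than in eWAT on all 3 days (1.86 ± 0.54, 2.96 ± 0.55 and 2.75 ± 0.56, adjusted p = 0.0274, 4.88e-04 and 0.00144).

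The genes most like Elovl3 over the 31 libraries, by Pearson correlation of log2 CPM among 9840 genes, were Slc25a34 (0.968), Traf4 (0.954), Ucp1 (0.951), Fabp3 (0.95) and Cox7a1 (0.949). Ucp1, the uncoupling protein of brown fat, had group means of 7496, 22130 and 26676 CPM in iBAT, 212, 6065 and 3259 in iWAT and 4.43 to 20.8 in eWAT. Slc25a34, a mitochondrial carrier gene, had 44.6, 189 and 133 CPM in iBAT, 3.51, 29.5 and 30.9 in iWAT and 1.25 to 2.62 in eWAT. The genes most like Elovl6 were Slc2a5 (0.906), Otop1 (0.891), Impa2 (0.877), Aspg (0.862) and Dlat (0.860). Slc2a5, a fructose transporter, had 34.1, 75.4 and 85.3 CPM in iBAT, 46.2, 72.7 and 84.7 in iWAT and 3.82 to 13.2 in eWAT. Its means in iBAT and iWAT were close, as were those of Elovl6 at day 0. Otop1, Impa2, Aspg and Dlat instead had higher means in iBAT than in iWAT at day 0. These were 190 against 36.6, 47.7 against 15.9, 55.9 against 24.1 and 349 against 118 CPM. The libraries share depot and day, and each coefficient is a description over all 9 groups.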

How the data were processed

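RNA-seq of 31 libraries of 3 fat depots was analysed. The authors deposited 1 table of raw counts per RefSeq transcript accession for each depot. For the reads, the submitters' processing notes list BWA and cutadapt (no version) and mm10 as the build. How reads were counted, against which annotation, with or without strand and duplicates, is not given in the sources used here. Reads from the stretch where the ends of Elovl3 and Pitx3 overlap therefore cannot be told apart. Missing values were read as 0. Of 17334 accessions, 17026 took a symbol from RefSeq, 109 from GENCODE M21 and 199 none.

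Counts were tested in R 4.3.3 with edgeR 4.0.16 (TMM, filterByExpr with a minimum count of 10 and total of 15, robust quasi-likelihood F-tests, two-sided, Benjamini-Hochberg within each comparison, threshold 0.05). Days were compared within depots (8270, 9574 and 10043 features in iBAT, iWAT and eWAT), and depots and their changes in 1 fit of all 31 libraries (11041). Each SE is the absolute log2 change over the square root of F. Levels are CPM on TMM-scaled library sizes of the 31-library fit; marker sums use CPM of the total count. Total counts of 1.5 to 5.53 M set the depth. The intervals of the ratios to eWAT use counts pooled over libraries, so they cover counting error only and omit the spread between libraries. They treat each count as independent, and the labels name no molecular identifiers by which duplicate reads could be told apart.

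Alternatives were DESeq2 1.42.0, voom of limma 3.58.1, RLE scaling, scaling by library size only, no filter on low counts, a library score, summed rows, other fits, the label number as a block, and leaving out libraries. Named were all members, up to 3 called genes per list and kind of comparison (or the one with the highest mean where none passed), and for called members the 5 genes with the highest correlation. A gene that this rule would name is not reported here. Members and lists were chosen with earlier results of these data known.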

Additional observations from a re-analysis of the deposited data

Results flagged for a closer look

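Of 15 combinations of member and group with 4 or more libraries, 2 held a library far from the others relative to the group's range, and chance flags about 1 in 20 such groups. Both are library iWAT548 of day 4. Its Elovl5 level was 178 CPM, against 46.9 to 73.6 in the other 4 libraries. Its Elovl4 level was 0 CPM, against 1.51 to 1.86 in the others, which held only 2 to 12 counts. Library iWAT548 also had the lowest sum of keratinocyte and sebocyte markers of its group (312 CPM), while its sum of adipocyte markers (46569 CPM) lay within the range of the group.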

How the results depend on the processing

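Calls among members for cold against day 0 numbered 1 as reported, 0 with library size alone, 2 without the filter on low counts, 5 with DESeq2, 2 with a library score as a covariate and 0 in 1 fit of all 31 libraries. Leaving out 1 library gave 0 to 1. The DESeq2 calls were Elovl3 in iBAT and iWAT on both days and Elovl6 in iBAT at day 2. For depots, leaving out 1 library gave 4 to 5 calls at day 0 (5 as reported), 4 to 7 at day 2 (6) and 5 to 7 at day 4 (6). For day 4 against day 2, and for changes compared between depots, all alternatives gave 0. Elovl4 in iWAT minus eWAT at day 4 reversed from −4.46 to 0.14 without eWAT551, and was −5.03 without eWAT548. The 35 member results with an unadjusted p under 0.05 had 1225 alternative values. Of these, 1152 kept direction and side of the threshold, 52 fell short of it, 20 newly passed and 1 reversed. That selection favours results that keep their direction. Outside it, the Elovl5 change at day 4 in iBAT minus that in eWAT, −0.03, reversed in 11 alternatives. Library size alone moved the median log2 change of all features from 0.01 to −0.27 in iBAT at day 2, and calls between iBAT and iWAT at day 0 from 897 higher and 1079 lower to 580 and 1522.

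Label numbers recur across depots. Deviations of same-numbered libraries correlated from −0.44 to 0.36 over 23 pairs (median −0.08, 6 over 0.1), with a median of 0.02 over 82 other pairs. The numbers were therefore not taken to pair the samples in the main fits. Low correlation between different tissues does not show that a number stands for different animals, so whether the samples are paired is not settled. With the number as a replicate block, calls between depots were 4 at day 0, 3 at day 2 and 5 at day 4, and 0 for the changes compared between depots. The calls lost under the block were Elovl3 between iBAT and iWAT at day 0 (adjusted p = 0.0616) and day 2 (0.0811), Elovl4 between iBAT and eWAT at day 2 (0.117) and between iWAT and eWAT at day 4 (0.434), and Elovl6 between iWAT and eWAT at day 2 (0.0580). The days of a depot share no number.

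Depth limited Elovl7, Elovl4 in all depots and Elovl3 in eWAT, where most libraries held under 30 counts.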

Other observations

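Elovl2, an elongase of polyunsaturated fatty acids outside the set described above, was chosen after its values were seen. It had 31.7 CPM (130 counts) in eWAT551 and 13.8 CPM (103 counts) in iWAT555. Testis and epididymis markers summed to 21579 and 6098 CPM in these, but to 23148 CPM in eWAT516 and 39051 CPM in eWAT532, where Elovl2 had 2.20 and 4.03 CPM. In all other libraries it was at 0 to 4.16 CPM.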
